A study of Mus musculus with 15 samples.

Results

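Livers of adult male C57BL/6 mice that had received carbon tetrachloride (CCl4) for 6 weeks were compared with livers of the same regimen 20 days later, after a second phase on chow. CCl4 is a solvent that hepatocyte cytochrome P450 turns into a radical, which kills the hepatocytes around the central vein. Repeated dosing scars the liver. The 2 day 0 libraries, numbers 3 and 4 in the labels, came from animals given CCl4 into the peritoneum at 0.2 ml/kg 2 times a week for 6 weeks. The 2 day 20 libraries, numbers 16 and 17, had the same 6 weeks and then CCl4 at 0.5 of that dose together with chow, without ethanol. These 4 were all libraries of both groups, of 15 in the series. The labels do not give the time between the last injection and the taking of tissue in either group. Of the 2 compared groups, only the day 20 pair has the second phase and the title entry 2-4 in the labels. By the names of the deposited tables that pair was sequenced in lanes L003 and L005 and the day 0 pair in lanes L004 and L006, so that day, continued CCl4, feeding and lane cannot be told apart here. For a comparison without CCl4, the arm that the labels call OO and do not spell out gave 2 libraries at day 0 (1 and 2). It also gave 1 chow library each at day 20 (12) and day 23 (5). In the titles library 12 has the entry 2-4 and OO again in the second phase. Library 5 has another entry and no OO in the second phase, so the 2 differ in more than the day.

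A liver injured by CCl4 is cleared by neutrophils, monocytes that come in from blood and resident macrophages, the Kupffer cells, while surviving hepatocytes divide and stellate cells lay down collagen. Cytokines reaching the hepatocyte switch on the acute-phase proteins that it secretes into plasma. Genes of drug, amino acid and lipid metabolism are arranged along the line from portal to central vein, and many are known to fall during inflammation. All 4 libraries carried liver messenger RNA: the summed level of 5 defining hepatocyte genes was 95518 and 91267 CPM (counts scaled to a common library size) at day 0 and 91816 and 77468 CPM at day 20, and 0 of the 5 passed the test. Libraries held 10347844 to 16630912 reads in genes, and 16522 to 17237 genes were detected. The day 0 libraries had a chi-square of their counts, divided by its degrees of freedom, of 3.93, and the day 20 libraries of 33.1, where counting error alone gives about 1. The labels do not say that replicates came from separate animals, so the p-values refer to the spread among libraries, which may be technical. That spread was pooled over all 15 libraries in 8 groups, the ethanol-fed groups included, and not taken from the compared pairs alone.

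In the following, values are normalised CPM of libraries 3 and 4 against those of libraries 16 and 17, changes are log2 of day 20 over day 0 ± SE (n = 2 per group), and a gene rose or fell where the adjusted p of edgeR's quasi-likelihood test was under 0.05 (Benjamini-Hochberg over 14778 tested genes). Where the call was lost in 1 or more of the 4 fits that each left out 1 of the compared libraries, the highest adjusted p of these fits follows, with the library left out. CPM is not divided by gene length, so levels are compared between libraries and not between genes. Of the 14778 genes, 1694 (11.5%) were called, 1074 (7.27%) higher and 620 (4.2%) lower at day 20. Of these, 838 rose and 166 fell by more than 1 on the log2 scale. The median change of all tested genes was 0.02, and 51.3% of changes were positive. The groups did not overlap in any called gene, nor in 60.6% of all tested genes, so a lack of overlap adds nothing to a call. Leaving out library 3 left 281 calls, library 4 left 262, library 16 left 796 and library 17 left 605. Calls higher at day 20 were 74.2% to 79.4% of all calls in these fits, and 63.4% with all libraries.

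**Figure D1:**
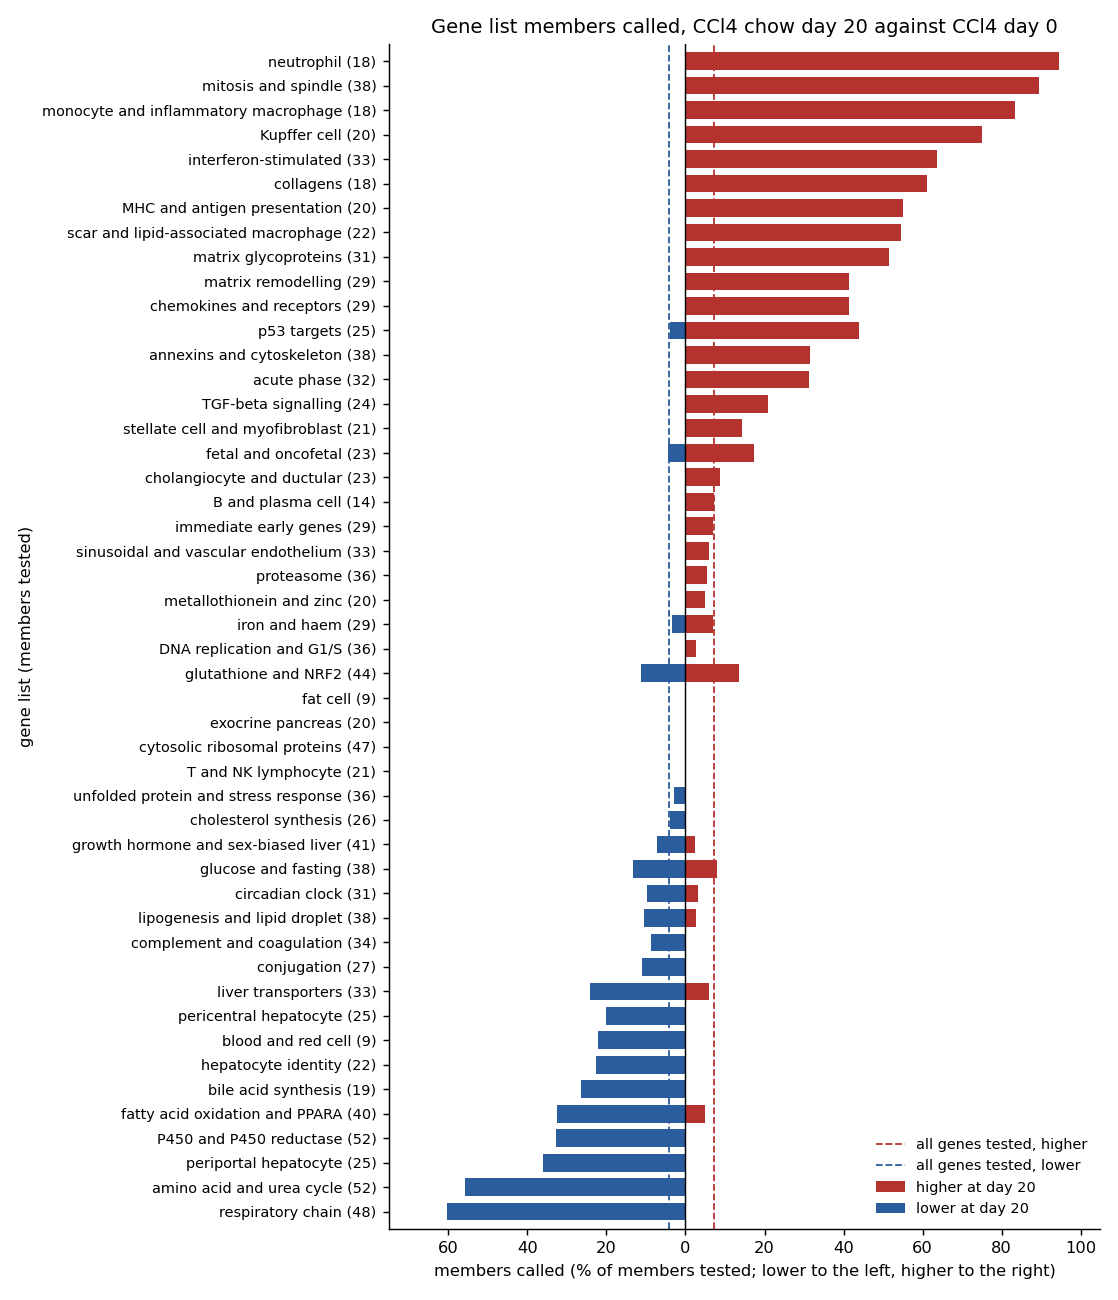
Share of the tested members of each gene list that rose (to the right) or fell (to the left) at day 20 against day 0, in percent. Dashed lines mark the same shares over all tested genes, 7.27% and 4.2%. Neutrophil, mitosis and macrophage lists lie on the right, and amino acid, respiratory chain and P450 lists on the left.

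Neutrophil genes had the largest median change of the 48 gene lists examined. Of 19 listed genes 18 were tested, and 17 of the 18 rose with a median change of 4.35, against a background of 7.27% higher. Padi4, a citrullinating enzyme chosen after its values were seen, was the tested member that did not pass, and Ceacam10 was not tested. Csf3r, the receptor for the growth factor that drives neutrophil production (chr4:126024550-126044440), was at 3.63 and 3.56 CPM against 19.4 and 17.9 CPM (log2 change 2.37 ± 0.23, adjusted p = 0.000442). Both day 20 libraries lay about 5 times above both day 0 libraries. Granule protein genes had few reads at day 0. Ltf, the iron-binding lactoferrin of secondary granules (chr9:111019271-111042767), was at 1.44 and 1.19 CPM against 47.4 and 35.2 CPM (log2 change 4.95 ± 0.56, adjusted p = 0.000826). Camp, which gives the antimicrobial peptide cathelicidin, was at 0.25 and 0.396 CPM against 12.4 and 10.7 CPM (log2 change 5.18 ± 0.79, adjusted p = 0.00287, 0.0596 without library 3), and Mpo, the peroxidase of primary granules, at 0.313 and 0 CPM against 11.9 and 9.69 CPM (log2 change 5.80 ± 1.28, adjusted p = 0.0164, 0.131 without library 4). Each of the 3 was clearly separated between the groups, with both day 20 libraries alike. S100a9, a subunit of calprotectin, was at 6.51 and 3.56 CPM against 91.6 and 104 CPM (log2 change 4.24 ± 0.58, adjusted p = 0.0018), and Cxcr2, the chemokine receptor that draws neutrophils into tissue, at 0.313 and 0 CPM against 4.90 and 5.51 CPM (log2 change 4.75 ± 0.59, adjusted p = 0.00114). The matrix protease Mmp9 (chr2:164940780-164955850), stored in neutrophil granules and also made by macrophages, was at 0.438 and 0.494 CPM against 10.5 and 5.71 CPM (log2 change 4.10 ± 0.43, adjusted p = 0.000538). Ly6g, which defines mouse neutrophils and was chosen after its values were seen, had 0 reads in both day 0 libraries and 14 and 15 reads at day 20, at least 8.77-fold higher against a floor of 3 reads over the day 0 group. With Ly6g at that bound the list median was 4.22. The median change of the list in OO livers was 0.95. The filter on low counts used all 15 libraries. Genes near 0 at day 0 passed it through groups where they were higher, which can include the day 20 pair. Such genes could hardly be called lower, so their part in the list count and median is partly set by the filter. Without library 3 the list had 9 called members and without library 4 it had 10. In whole tissue a change in the number of cells of a type and a change in RNA per cell cannot be told apart.

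Macrophage genes rose in both resident and recruited lists. Of 20 Kupffer cell genes 15 rose and 0 fell, with a median change of 1.34, against a background of 7.27% higher. Csf1r, the receptor on which macrophages depend for survival, was at 75.2 and 72.3 CPM against 246 and 236 CPM (log2 change 1.71 ± 0.15, adjusted p = 0.000289). The complement component C1qb was at 40.5 and 34.9 CPM against 112 and 119 CPM (log2 change 1.62 ± 0.17, adjusted p = 0.000512), and the complement receptor Vsig4 at 33.3 and 30.9 CPM against 63.7 and 78.3 CPM (log2 change 1.14 ± 0.16, adjusted p = 0.00213). In all 3 genes the day 20 libraries were alike and lay above both day 0 libraries. The haemoglobin receptor Cd163 was at 11.2 and 12.9 CPM against 38.5 and 24.0 CPM (log2 change 1.38 ± 0.22, adjusted p = 0.00365, 0.061 without library 3). The lectin Cd207 (chr6:83671215-83677857), a langerin known from dendritic cells and part of the liver macrophage repertoire in mice, was at 1.88 and 2.08 CPM against 12.4 and 19.0 CPM (log2 change 2.99 ± 0.28, adjusted p = 0.000329). In OO livers its level was 15.1 and 15.4 CPM at day 0 and 8.14 and 10.5 CPM under chow, so that the CCl4 day 0 pair was the lowest of these groups. Clec1b, Hmox1, Nr1h3, Id3 and Slc40a1 were the 5 members that did not pass. The median change of the Kupffer cell list in OO livers was 0.61. Without 1 library 10 to 13 members were called.

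Of 18 genes of monocytes and inflammatory macrophages 15 rose, with a median of 2.19, against a background of 7.27% higher. The median of this list in OO livers was 0.73. Itgam, the integrin CD11b of monocytes and neutrophils, was at 3.51 and 2.67 CPM against 20.8 and 38.0 CPM (log2 change 3.23 ± 0.41, adjusted p = 0.00118). Lyz2, the lysozyme of myeloid cells, was at 107 and 107 CPM against 387 and 799.9 CPM (log2 change 2.47 ± 0.32, adjusted p = 0.00124). In both genes library 17 was about 2 times as high as library 16, and both were above day 0. The Fc receptor Fcgr4 was at 3.32 and 3.07 CPM against 12.7 and 16.6 CPM (log2 change 2.19 ± 0.25, adjusted p = 0.000847), and the matrix protein Emilin2 at 2.63 and 3.66 CPM against 15.4 and 15.9 CPM (log2 change 2.33 ± 0.26, adjusted p = 0.000817). Without library 3 the list had 5 called members and without library 4 it had 6. Of 22 genes of scar-associated and lipid-handling macrophages 12 rose, with a median of 1.15, against a background of 7.27% higher. The median of this list in OO livers was 0.74. The endosomal glycoprotein Cd68 was at 9.83 and 8.11 CPM against 28.0 and 28.9 CPM (log2 change 1.66 ± 0.21, adjusted p = 0.00114), and Tyrobp, the adaptor of myeloid receptors, at 21.0 and 17.2 CPM against 43.1 and 66.6 CPM (log2 change 1.52 ± 0.22, adjusted p = 0.00234). Gpnmb and Spp1, which mark macrophages in scarred liver, passed with less margin: Gpnmb was at 28.9 and 23.8 CPM against 58.4 and 158 CPM (log2 change 2.03 ± 0.52, adjusted p = 0.0312, 0.209 without library 17) and Spp1 at 47.0 and 47.3 CPM against 77.9 and 291 CPM (log2 change 1.97 ± 0.55, adjusted p = 0.0402, 0.353 without library 17). For these the spread within day 20 was wide, with library 17 more than 2 times library 16. The list had 2 called members without library 3 or library 4, and 3 without library 17.

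**Figure D2:**
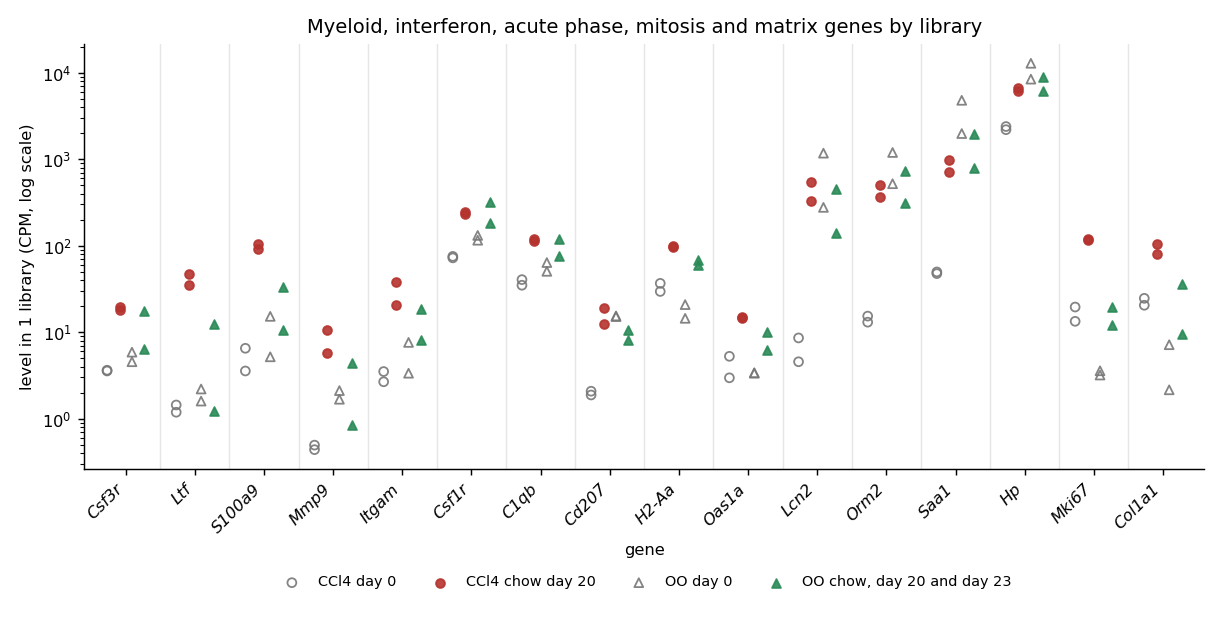
Level of 16 genes in each library, in CPM on a log axis, for CCl4 day 0 (open grey circles), CCl4 chow day 20 (red circles), OO day 0 (open grey triangles) and OO chow (green triangles). The day 20 libraries lie above the CCl4 day 0 libraries for every gene shown, while for Orm2, Saa1 and Hp both OO day 0 libraries are higher still.

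Genes of T and NK cells did not pass. Of 26 listed 21 were tested and 0 were called by edgeR's quasi-likelihood test, with 6 at an unadjusted p under 0.05. DESeq2 also called 0. The median change was 0.87, with 19 positive changes. The summed level of the tested members was 20.5 and 17.4 CPM against 32.6 and 26.1 CPM. At such low levels the lack of calls does not show that these genes were unchanged. Of 14 tested B and plasma cell genes 1 rose (7.14%, near the background of 7.27%), the leukocyte tetraspanin Cd37, and the list median was -0.17. Antigen presentation was called for class II genes. Of 20 genes of that list 11 rose, with a median of 0.75 and a background of 7.27% higher: 7 of class II and its loading (H2-Aa, H2-Ab1, H2-Eb1, Cd74, Ciita, H2-DMa and H2-DMb1), the protease Ctss, and Tap1, Psmb8 and Psmb9, which cut and carry peptides for class I. H2-Aa, a class II chain (chr17:34282744-34287823), was at 36.7 and 29.6 CPM against 97.3 and 99.0 CPM (log2 change 1.56 ± 0.22, adjusted p = 0.00213). Both day 20 libraries were alike and above both day 0 libraries. The class I genes H2-D1, H2-K1 and B2m did not pass. In OO livers the list median was 0.35 and 3 members rose, against 0.298% of all tested genes higher there. The difference between the changes in CCl4 and OO livers was called for 0 of the 20, which does not show that the arms changed alike. Without library 3 the list had 3 called members, without library 4 it had 1, and without library 16 or 17 it had 6. Of 29 tested chemokines and receptors 12 rose, with a median of 1.27, against a background of 7.27% higher. The median change of the chemokine list in OO livers was 0.88. Cxcl16, a membrane-bound chemokine of macrophages, was at 8.27 and 9.0 CPM against 21.9 and 19.7 CPM (log2 change 1.27 ± 0.19, adjusted p = 0.00273). The receptor Ccr1 was at 1.19 and 0.989 CPM against 4.10 and 10.2 CPM (log2 change 2.70 ± 0.41, adjusted p = 0.00278). The list had 5 called members without library 3 or library 4, and 7 without library 17.

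Interferon induces antiviral enzymes and guanylate-binding proteins through transcription factors that bind the interferon-stimulated response element (ISRE) near a gene's start. All 33 listed interferon-stimulated genes had a positive change, with a median of 0.80, and 21 of them rose, against a background of 7.27%. The median change of the list in OO livers was 0.55. Promoter sequences were taken from RefSeq (build GRCm38.p6), as the 250 bases before the start. They are shown for the 3 called members with the smallest adjusted p among those with a single RefSeq promoter. Oas1a holds the element 2 times at overlapping positions, Gbp2 holds it 1 time on the other strand, and Oasl2 does not hold it. Gbp2 and Oasl2 were chosen after their values were seen. Capitals mark GAAANNGAAA on either strand.
Oas1a, chr5:120907526-120907775, minus strand: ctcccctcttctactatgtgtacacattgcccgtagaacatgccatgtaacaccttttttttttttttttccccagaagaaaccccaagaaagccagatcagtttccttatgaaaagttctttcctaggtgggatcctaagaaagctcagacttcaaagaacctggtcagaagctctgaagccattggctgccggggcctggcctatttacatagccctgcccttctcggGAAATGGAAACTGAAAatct
Gbp2, chr3:142620413-142620662, plus strand: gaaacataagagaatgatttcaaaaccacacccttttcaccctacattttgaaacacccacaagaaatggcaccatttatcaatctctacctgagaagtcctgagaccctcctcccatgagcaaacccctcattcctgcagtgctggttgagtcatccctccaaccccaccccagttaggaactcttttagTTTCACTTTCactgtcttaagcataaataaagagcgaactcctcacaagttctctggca
Oasl2, chr5:114896684-114896933, plus strand: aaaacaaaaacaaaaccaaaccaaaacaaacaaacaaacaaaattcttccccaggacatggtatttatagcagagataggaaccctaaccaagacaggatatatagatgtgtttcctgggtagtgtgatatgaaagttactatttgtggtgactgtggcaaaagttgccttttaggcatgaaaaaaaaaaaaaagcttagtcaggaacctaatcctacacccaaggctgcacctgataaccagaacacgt
This element was present in 8 of 14 (57.1%) called members that matched a single RefSeq promoter, and in 2.98% of all 32851 promoter windows of the same length. The list was chosen as interferon-stimulated genes, so the higher share may come from that choice and says nothing about day 20. Members that were not called were not counted, and all windows include genes with several promoters. A match describes the sequence and not binding. Oas1a, which makes the 2-5A that activates RNase L, was at 5.26 and 2.97 CPM against 14.7 and 14.9 CPM (log2 change 1.82 ± 0.28, adjusted p = 0.0032). Gbp2, a GTPase that attacks vacuoles of microbes, was at 8.33 and 5.54 CPM against 14.7 and 21.5 CPM (log2 change 1.37 ± 0.26, adjusted p = 0.00749, 0.0899 without library 4), and Oasl2, an OAS-like protein whose promoter holds no such element, at 3.94 and 5.74 CPM against 19.2 and 14.2 CPM (log2 change 1.80 ± 0.37, adjusted p = 0.0111, 0.131 without library 3). Gbp3, of the same family as Gbp2, was at 7.01 and 6.82 CPM against 18.7 and 18.5 CPM (log2 change 1.42 ± 0.19, adjusted p = 0.00164). Without 1 library 3 to 10 members were called, 4 without library 3, 3 without library 4, 6 without library 16 and 10 without library 17.

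Of 32 acute-phase genes 10 rose and 0 fell, with a median change of 0.98, against a background of 7.27% higher. Lcn2, a lipocalin that withholds iron from bacteria (chr2:32384633-32388252), was at 8.58 and 4.55 CPM against 548 and 329 CPM (log2 change 6.03 ± 0.79, adjusted p = 0.00142), 65.5-fold higher. Its transcript is made by hepatocytes and by neutrophils. Orm2, an orosomucoid that carries drugs in plasma (chr4:63362449-63365878), was at 15.3 and 13.1 CPM against 501 and 361 CPM (log2 change 4.92 ± 0.48, adjusted p = 0.000442). Serum amyloid Saa1 (chr7:46740497-46742980) was at 49.7 and 47.6 CPM against 706 and 973 CPM (log2 change 4.11 ± 0.70, adjusted p = 0.00489, 0.0652 without library 4). Haptoglobin, encoded by Hp (chr8:109575128-109579172), was at 2386 and 2194 CPM against 6662 and 6095 CPM (log2 change 1.48 ± 0.24, adjusted p = 0.00375, 0.059 without library 4). In each of these genes both day 20 libraries were above both day 0 libraries, and the Saa and Orm genes have close copies between which reads may be misassigned. Orm1, Orm3, Saa2 and Cd14 also rose. So did ceruloplasmin Cp, which carries copper, at 1712 and 1728 CPM against 3102 and 3142 CPM (log2 change 0.86 ± 0.18, adjusted p = 0.0124, 0.114 without library 3), and hemopexin Hpx, which binds haem, at 6506 and 6016 CPM against 11779 and 12113 CPM (log2 change 0.93 ± 0.24, adjusted p = 0.0303, 0.19 without library 4). Both lost the call without any 1 of the 4 libraries. Fibrinogen genes Fga, Fgb and Fgg, and Crp, did not pass. Without library 4 the list had 3 called members and without library 3 it had 4.

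For these genes the level at day 0 was low in CCl4 livers. OO livers held Orm2 at 1196 and 520.3 CPM at day 0 and 724 and 308 CPM under chow, Saa1 at 4797 and 1979 CPM at day 0 and 1955 and 798 CPM under chow and Hp at 12847 and 8426 CPM at day 0 and 8841 and 6071 CPM under chow. The CCl4 day 20 values lay inside or below the range of the OO libraries for these 3 genes. The median change of the acute-phase list in OO livers was -0.66. Single genes are tested for a difference between the arms at the end.

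Genes of mitosis rose together. All 38 listed genes had a positive change, from 1.37 to 3.21 with a median of 2.15, and 34 of them rose, against a background of 7.27%. Ube2c, Spag5, Foxm1 and Birc5 did not pass. Cell-cycle promoters often hold a CCAAT box, bound by NF-Y, and the CHR element TTTGAA, bound by the MuvB complex that silences them outside G2 and M phase. The promoters of 3 of the called members are shown with CCAAT and TTTGAA on either strand in capitals: Hmmr, with 5 boxes, Racgap1, with 1, and Mki67, which holds both elements.
Hmmr, chr11:40733438-40733687, minus strand: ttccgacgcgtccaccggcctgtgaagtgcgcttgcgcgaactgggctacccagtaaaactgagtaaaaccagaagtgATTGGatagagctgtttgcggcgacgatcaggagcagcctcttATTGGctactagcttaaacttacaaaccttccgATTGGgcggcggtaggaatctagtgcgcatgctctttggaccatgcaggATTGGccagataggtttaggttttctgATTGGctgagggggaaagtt
Racgap1, chr15:99651657-99651906, minus strand: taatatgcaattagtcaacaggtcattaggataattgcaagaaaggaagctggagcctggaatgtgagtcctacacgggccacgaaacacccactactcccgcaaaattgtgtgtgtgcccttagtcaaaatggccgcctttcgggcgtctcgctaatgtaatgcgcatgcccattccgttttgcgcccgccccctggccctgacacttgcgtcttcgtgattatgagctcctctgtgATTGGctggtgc
Mki67, chr7:135716380-135716629, minus strand: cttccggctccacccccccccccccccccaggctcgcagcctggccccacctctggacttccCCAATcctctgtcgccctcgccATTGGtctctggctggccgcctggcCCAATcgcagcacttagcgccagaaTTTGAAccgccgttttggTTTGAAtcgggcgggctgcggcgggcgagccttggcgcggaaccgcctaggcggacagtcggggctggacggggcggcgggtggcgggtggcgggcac
CCAAT was present in 21 of 28 (75%) called members with a single RefSeq promoter, against 33.8% of all windows. TTTGAA was present in 9 of 28 (32.1%), against 16%, and both in 8 of 28 (28.6%), against 5.55%. The list was chosen as mitosis genes, so the higher shares may come from that choice and say nothing about day 20. Hmmr, a hyaluronan receptor that organises the spindle, was at 3.19 and 2.27 CPM against 19.5 and 22.5 CPM (log2 change 2.92 ± 0.45, adjusted p = 0.003, 0.051 without library 4). Racgap1, part of the complex that places the cleavage furrow, was at 1.57 and 1.29 CPM against 14.2 and 12.6 CPM (log2 change 3.21 ± 0.53, adjusted p = 0.00415, 0.058 without library 4). Mki67, the proliferation marker Ki-67 (chr7:135689784-135716361), was at 19.5 and 13.3 CPM against 117 and 121 CPM (log2 change 2.84 ± 0.47, adjusted p = 0.00435, 0.062 without library 4). Each of the 3 was at least 5 times higher in both day 20 libraries, which were alike. OO livers held Mki67 at 3.58 and 3.19 CPM at day 0 and 19.5 and 12.2 CPM under chow, and the median change of the list in OO livers was 1.49. The test of the difference between the changes in CCl4 and OO livers called 0 of the 38 in edgeR, with 1 at an unadjusted p under 0.05, and 0 in DESeq2 and limma-voom, which does not show that the arms changed alike. The number of calls depended on the libraries: 5 without library 3, 0 without library 4, 14 without library 16 and 11 without library 17, all in edgeR's quasi-likelihood test. Without library 4, 37 of 38 members had an unadjusted p under 0.05, and with all libraries limma-voom called 15 and DESeq2 38.

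Of 36 genes of DNA replication and G1/S 1 rose (2.78%, below the background of 7.27%), with a median of 0.65 and 31 positive changes. That gene was Gins2, a subunit of the replicative helicase, at 0.689 and 0.791 CPM against 2.85 and 3.85 CPM (log2 change 2.18 ± 0.57, adjusted p = 0.0316, 0.204 without library 3). The clamp Pcna was at 32.0 and 29.6 CPM against 24.5 and 35.3 CPM (log2 change -0.04 ± 0.27, adjusted p = 0.937). Of 25 p53 targets 11 rose and 1 fell, with a median of 0.68, against a background of 7.27% higher and 4.2% lower. Cdkn1a, the inhibitor p21 that arrests the cycle (chr17:29090976-29100727), was at 1.5 and 1.98 CPM against 25.7 and 9.96 CPM (log2 change 3.37 ± 0.60, adjusted p = 0.00602, 0.086 without library 3). Eda2r, a death receptor, was at 2.44 and 2.27 CPM against 12.7 and 13.9 CPM (log2 change 2.49 ± 0.43, adjusted p = 0.00512, 0.0646 without library 3), and Mdm2, the ligase that removes p53, at 38.3 and 32.2 CPM against 53.0 and 53.2 CPM (log2 change 0.59 ± 0.15, adjusted p = 0.0295, 0.219 without library 4). Bbc3, which encodes the killer protein PUMA, fell, at 8.64 and 8.70 CPM against 5.49 and 3.78 CPM (log2 change -0.90 ± 0.24, adjusted p = 0.0348, 0.17 without library 17). Library 16 held Cdkn1a at more than 2 times the level of library 17, while the libraries of each group were closer in the other 3 genes. Without library 3 or library 4 the number of p53 targets higher was 1, and without library 16 or 17 it was 6.

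With all libraries the called matrix genes were higher at day 20. Of 18 collagens 11 rose with a median of 0.96, of 31 tested matrix glycoproteins 16 rose with a median of 1.02, and of 29 tested remodelling genes 12 rose with a median of 1.09, against a background of 7.27% higher. In OO livers the medians of these 3 lists were 0.60, 0.60 and 0.68. The difference between the changes in CCl4 and OO livers was called for 0, 0 and 1 of their members, which does not show that the arms changed alike. Col1a1, the main chain of fibrillar collagen I (chr11:94936224-94953042), was at 20.5 and 24.6 CPM against 104 and 80.4 CPM (log2 change 2.04 ± 0.57, adjusted p = 0.0409, 0.235 without library 3). Its partner Col1a2 was at 60.4 and 55.4 CPM against 189 and 243 CPM (log2 change 1.90 ± 0.46, adjusted p = 0.0243, 0.165 without library 4). The basement membrane collagen Col4a1 was at 91.2 and 93.0 CPM against 173 and 177 CPM (log2 change 0.93 ± 0.20, adjusted p = 0.0155, 0.121 without library 3). In each collagen named both day 20 libraries lay above day 0, and without library 3 or library 4 edgeR called 0 of the 18, with 12 at an unadjusted p under 0.05 in either fit. Without library 16 there were 2 collagens higher and 1 lower, without library 17 there was 1 higher, and DESeq2 on all libraries called 12. Matrix glycoproteins had 0 calls without library 3 or 4, with 20 and 17 members at an unadjusted p under 0.05, 7 without library 16 and 2 without library 17, and DESeq2 called 17. Vcan, a large proteoglycan of provisional matrix, was at 1.75 and 2.27 CPM against 7.53 and 14.1 CPM (log2 change 2.44 ± 0.43, adjusted p = 0.00595, 0.0836 without library 3).

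Among proteases, Mmp14, the membrane-bound activator of gelatinase, was at 33.2 and 37.8 CPM against 70.4 and 68.6 CPM (log2 change 0.97 ± 0.12, adjusted p = 0.0011). Mmp2, the gelatinase of stellate cells, was at 14.0 and 12.6 CPM against 46.2 and 49.7 CPM (log2 change 1.85 ± 0.31, adjusted p = 0.00449, 0.062 without library 4), and Mmp8, the collagenase of neutrophils, at 0.751 and 0.396 CPM against 7.39 and 6.31 CPM (log2 change 3.50 ± 0.49, adjusted p = 0.00201). In these 3 genes the day 20 libraries lay close together and above day 0. Adam8, a sheddase of myeloid cells, was at 2.00 and 1.68 CPM against 6.73 and 15.9 CPM (log2 change 2.60 ± 0.38, adjusted p = 0.00259). Without library 3 or library 4 the remodelling list had 4 called members and without library 17 it had 6. Of 21 tested genes of stellate cells and myofibroblasts 3 rose (14.3%, against a background of 7.27%), with a median of 0.27. They were the growth factor receptor Pdgfra, the hepatocyte growth factor Hgf and the filament Vim. Without library 3, library 4 or library 17 the stellate list had 1 called member. Pdgfra was at 23.4 and 20.9 CPM against 51.7 and 67.2 CPM (log2 change 1.42 ± 0.22, adjusted p = 0.00302). Acta2, the smooth muscle actin of myofibroblasts, was at 4.82 and 17.9 CPM against 10.5 and 10.4 CPM (log2 change -0.10 ± 0.67, adjusted p = 0.944), and overlapped between the groups. Timp1, the inhibitor of matrix proteases, was at 0.626 and 0.89 CPM against 1.46 and 10.8 CPM (log2 change 3.03 ± 1.09, adjusted p = 0.0974), with library 17 far above library 16. The summed level of 5 defining stellate markers was 424 and 337 CPM against 476 and 584 CPM, with 0 of the 5 called. Of 24 TGF-beta genes 5 rose (20.8%, against a background of 7.27%), with a median of 0.38: Ltbp1 and Ltbp2, which store the latent factor, its receptor Tgfbr2, its target Tgfbi and the repressor Skil. Without library 3, library 4 or library 17 edgeR called 0 of the 24, with 6 to 8 at an unadjusted p under 0.05, without library 16 it called 1, and DESeq2 on all libraries called 5. Ltbp2 was at 7.58 and 7.81 CPM against 43.8 and 35.3 CPM (log2 change 2.36 ± 0.54, adjusted p = 0.0184, 0.142 without library 3). Library 16 also held the skeletal muscle genes Acta1, Ckm and Myh4, whose sum was 20.9 CPM there and 0.597 CPM or less in the other compared libraries; they were not called, and their part in any result was not tested.

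**Figure D3:**
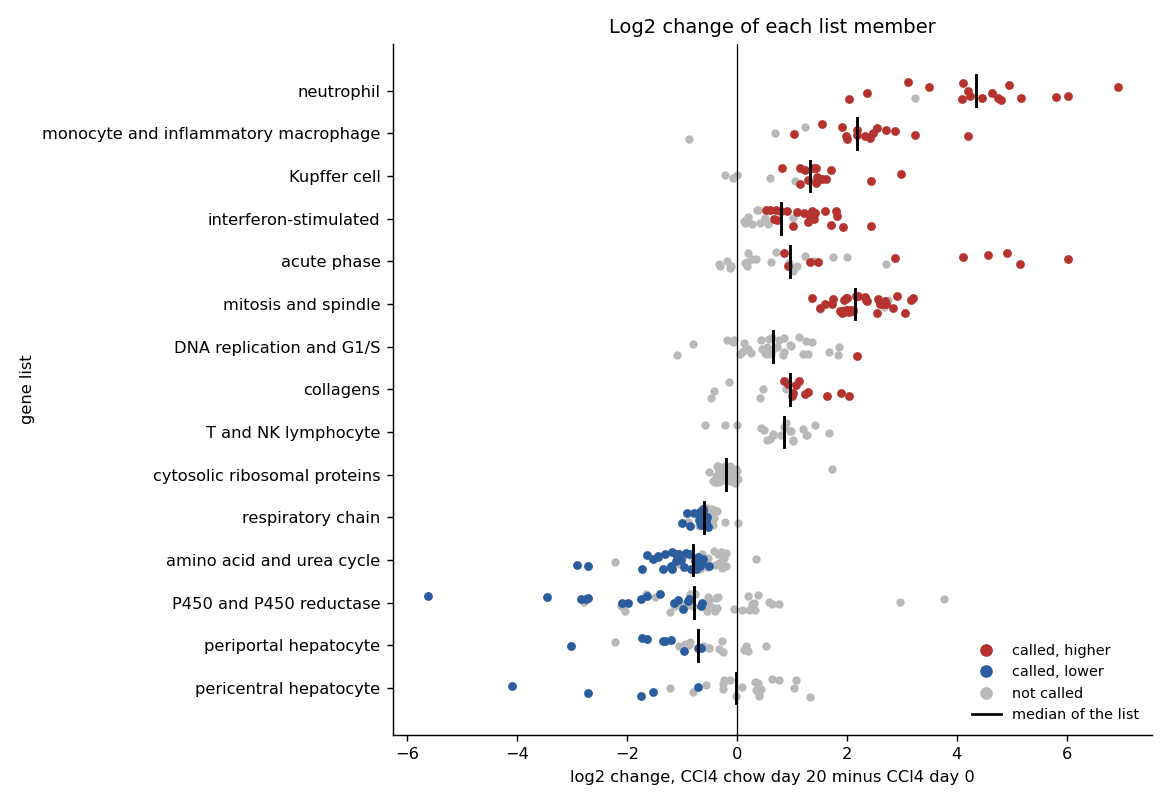
Change of every tested member of 15 gene lists, as log2 of day 20 over day 0, with the list median as a black line, called members in red (higher) or blue (lower) and others in grey. All members of the mitosis and interferon lists lie above 0, and those of the amino acid list lie below 0 apart from 1.

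Genes that break down amino acids were lower at day 20. Of 52 genes of amino acid catabolism and the urea cycle 29 fell and 0 rose, against a background of 4.2% lower, with a median change of -0.80 and 1 positive change, that of Bhmt (adjusted p = 0.595, chosen after its values were seen). Gls2, the liver glutaminase (chr10:128194457-128210004), was at 707 and 731 CPM against 249 and 215 CPM (log2 change -1.63 ± 0.15, adjusted p = 0.000293). Oat, the ornithine aminotransferase (chr7:132557478-132576398), was at 359 and 262 CPM against 41.0 and 54.0 CPM (log2 change -2.71 ± 0.27, adjusted p = 0.000447). Slc7a2, a transporter of arginine and lysine (chr8:40862396-40922308), was at 1588 and 1675 CPM against 498 and 487 CPM (log2 change -1.73 ± 0.21, adjusted p = 0.000991). Libraries of a group were close for Gls2 and Slc7a2, and wider apart for Oat. The glutamine and alanine transporter Slc38a4 was at 2142 and 2086 CPM against 900.1 and 934 CPM (log2 change -1.20 ± 0.14, adjusted p = 0.000886), and Got1, the aspartate aminotransferase of the cytosol, at 318 and 331 CPM against 122 and 104 CPM (log2 change -1.52 ± 0.20, adjusted p = 0.00164). Cps1, which commits ammonia to the urea cycle (chr1:67123026-67231259), was at 10998 and 10906 CPM against 5841 and 5448 CPM (log2 change -0.96 ± 0.25, adjusted p = 0.0333, 0.154 without library 3). Csad, which makes hypotaurine on the way to taurine, was at 609 and 559 CPM against 92.7 and 64.1 CPM (log2 change -2.90 ± 0.60, adjusted p = 0.0119, 0.0877 without library 17). The calls of Cps1 and Csad were lost without any 1 of the 4 libraries. The list had 6 called members without library 3 or library 4, 11 without library 16 and 9 without library 17.

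Hepatocyte genes were also listed by their position along the lobule. Of 25 periportal genes 9 fell and 0 rose, with a median of -0.71, against a background of 4.2% lower, and of 25 pericentral genes 5 fell and 0 rose, with a median of -0.01. Among the periportal genes Cps1, Gls2, Slc7a2, Asl, Hal and others are also in the amino acid list. The pericentral genes that fell were Oat, Cyp2c29, Lhpp, Slc1a2 and Cyp27a1. Slc1a2, a glutamate transporter of the innermost pericentral cells, was at 77.6 and 89.0 CPM against 6.88 and 2.99 CPM (log2 change -4.08 ± 1.06, adjusted p = 0.0321, 0.158 without library 17). Glul, the glutamine synthetase of those cells, was at 178 and 183 CPM against 139.7 and 106 CPM (log2 change -0.55 ± 0.30, adjusted p = 0.262), and Cyp2e1, which activates CCl4 in pericentral hepatocytes, at 2255 and 2038 CPM against 1235 and 1235 CPM (log2 change -0.80 ± 0.47, adjusted p = 0.315). Neither Glul nor Cyp2e1 passed, while OO livers held Glul at 886 and 1016 CPM at day 0 and 1059 and 1125 CPM under chow. Without 1 library the periportal list had 2 or 3 called members and the pericentral list 3. Of 22 hepatocyte identity genes 5 fell (22.7%, against a background of 4.2%), with a median of -0.40. Among them were Cps1, Tat and the nuclear receptors Nr1i2 and Nr5a2. Tat, the tyrosine aminotransferase, was at 2062 and 2148 CPM against 1242 and 847 CPM (log2 change -1.01 ± 0.29, adjusted p = 0.0428, 0.207 without library 17). Without library 3 or library 4 edgeR called 0 identity genes, with 6 and 7 at an unadjusted p under 0.05, and without library 16 or 17 it called 1. DESeq2 on all libraries called 9.

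Of 52 tested P450 genes 17 fell and 0 rose, with a median of -0.78, against a background of 4.2% lower. Most of the called genes belong to the families 2c, 3a, 4a and 4f. Cyp3a11, the main drug-metabolising P450 of mouse liver (chr5:145854426-145879964), was at 10869.5 and 9775 CPM against 1725 and 1439 CPM (log2 change -2.71 ± 0.32, adjusted p = 0.00099), 6.52-fold lower. Cyp2c29, which makes epoxides from arachidonic acid (chr19:39269405-39330713), was at 1054 and 949 CPM against 319 and 279 CPM (log2 change -1.74 ± 0.21, adjusted p = 0.00104). Cyp4a14, a fatty acid hydroxylase induced by PPARA (chr4:115486200-115496142), was at 123 and 148 CPM against 3.58 and 1.93 CPM (log2 change -5.62 ± 0.90, adjusted p = 0.00371). Both day 20 libraries were below both day 0 libraries by more than 2 times in each. In OO livers Cyp4a14 was at 3.30 and 14.8 CPM at day 0 and 6.01 and 10.7 CPM under chow, so the CCl4 day 0 pair was the highest of these groups for that gene. Reads of the 2c, 3a and 4a copies that align to several places were not counted, which makes single members uncertain. Without library 3 the list had 7 called members, with 9 without library 4, 11 without library 16 and 8 without library 17.

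Of 44 glutathione and NRF2 genes 6 rose (13.6%) and 5 fell (11.4%), with a median of -0.25. The background was 7.27% higher and 4.2% lower. Without library 3 or library 4 edgeR called 0 of them, with 14 and 16 at an unadjusted p under 0.05, without library 16 it called 2 higher and 2 lower, and without library 17 1 higher and 1 lower, while DESeq2 on all libraries called 7 higher and 6 lower. The transferase Gstm3 was at 104 and 98.4 CPM against 487 and 313 CPM (log2 change 1.99 ± 0.44, adjusted p = 0.0167, 0.13 without library 4). Of 27 conjugating enzymes 3 fell (11.1%, against a background of 4.2%), with a median of -0.45. Among them was the glucuronosyltransferase Ugt2b38, at 26.9 and 25.8 CPM against 6.80 and 8.70 CPM (log2 change -1.76 ± 0.25, adjusted p = 0.00228). Without library 4 or library 16 that list had 1 called member. Ces2a, a carboxylesterase that was named for the size of its change, was at 744 and 722 CPM against 116 and 109 CPM (log2 change -2.70 ± 0.41, adjusted p = 0.00273). Its values were alike within each group.

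**Figure D4:**
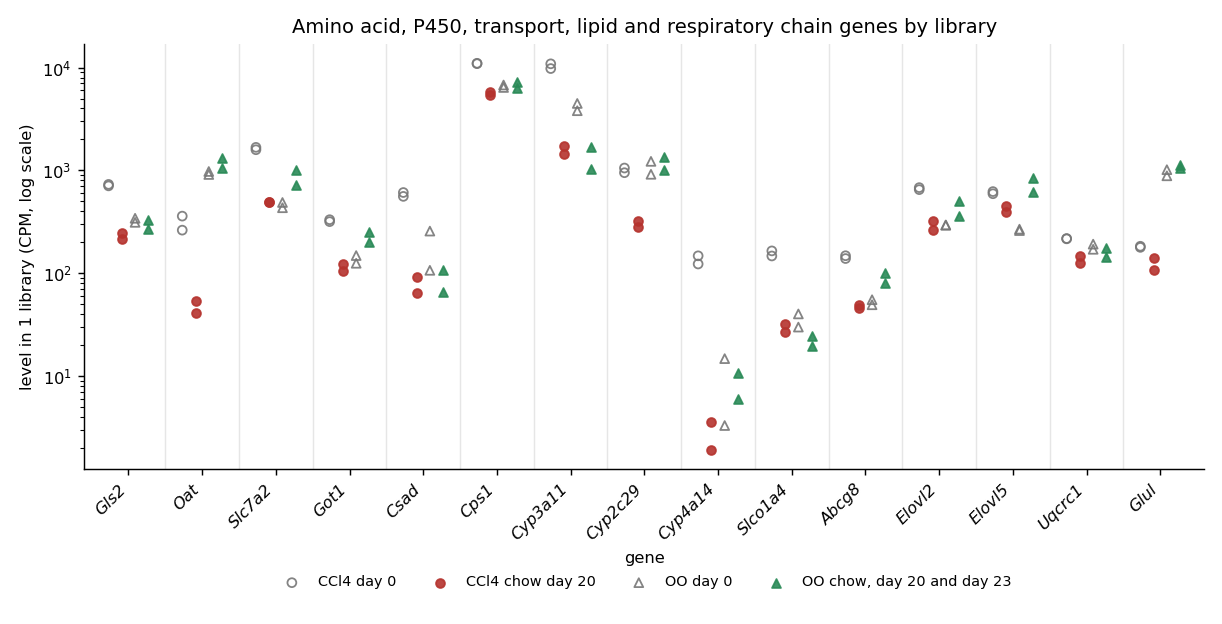
Level of 15 genes in each library, in CPM on a log axis, for CCl4 day 0 (open grey circles), CCl4 chow day 20 (red circles), OO day 0 (open grey triangles) and OO chow (green triangles). The red circles lie below the grey circles for every gene shown, and for Glul, which did not pass the test, all OO libraries are higher than all CCl4 libraries.

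Of 33 liver transporters 8 fell (24.2%) and 2 rose (6.06%), with a median of -0.39. The background was 4.2% lower and 7.27% higher, so the share that rose lay below it. Slco1a4, which takes up bile acids and drugs (chr6:141805440-141856199), was at 165 and 147 CPM against 26.7 and 31.8 CPM (log2 change -2.41 ± 0.30, adjusted p = 0.00114). The sterol exporters Abcg5 (chr17:84658234-84683011) and Abcg8 (chr17:84676302-84700333), whose proteins work as a pair, were at 125 and 119.6 CPM against 44.3 and 48.3 CPM (log2 change -1.40 ± 0.20, adjusted p = 0.00194) and 139 and 148 CPM against 46.1 and 49.1 CPM (log2 change -1.59 ± 0.24, adjusted p = 0.00287). Their genes overlap in the annotation, so reads from the shared stretch cannot be told apart. Slc22a7, an organic anion transporter, rose, at 12.9 and 13.3 CPM against 33.6 and 35.0 CPM (log2 change 1.39 ± 0.23, adjusted p = 0.00472, 0.0643 without library 3). Without library 3 or library 17 the transporter list had 4 called members lower, without library 4 it had 3 and without library 16 it had 5. Of 19 tested genes of bile acid synthesis 5 fell, with a median of -0.49, among them the 12-alpha-hydroxylase Cyp8b1, at 180.0 and 167 CPM against 46.4 and 62.3 CPM (log2 change -1.67 ± 0.48, adjusted p = 0.0443, 0.212 without library 16). Cyp7a1, the rate-limiting enzyme, was at 175 and 143 CPM against 312 and 341 CPM (log2 change 1.04 ± 0.95, adjusted p = 0.531) and did not pass. The 5 bile acid genes that fell were 26.3% of those tested, against a background of 4.2%. Without any 1 library edgeR called 0 bile acid genes, with 7 to 10 at an unadjusted p under 0.05, and DESeq2 on all libraries called 8.

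Of 38 tested genes of lipogenesis and the lipid droplet 4 fell (10.5%) and 1 rose (2.63%), with a median of -0.10. The background for the lists here was 4.2% lower and 7.27% higher. The elongases of polyunsaturated fatty acids Elovl2 and Elovl5 (chr9:77917364-77984519) fell: Elovl2 was at 650.0 and 679.6 CPM against 319 and 263 CPM (log2 change -1.19 ± 0.18, adjusted p = 0.0028) and Elovl5 at 622 and 593 CPM against 450.5 and 394 CPM (log2 change -0.52 ± 0.13, adjusted p = 0.03, 0.184 without library 3). Fasn, the fatty acid synthase, was at 858 and 879 CPM against 1637 and 926 CPM (log2 change 0.56 ± 0.61, adjusted p = 0.602), with library 16 apart from library 17. Without library 3, library 4 or library 17 the lipogenesis list had 1 called member lower. Of 26 tested cholesterol genes 1 fell (3.85%, below the background of 4.2%), the sterol reductase Tm7sf2. Of 40 genes of fatty acid oxidation and PPARA 13 fell (32.5%) and 2 rose (5%), with a median of -0.53. Acadl, the long-chain acyl-CoA dehydrogenase, was at 112 and 115 CPM against 77.4 and 68.0 CPM (log2 change -0.64 ± 0.13, adjusted p = 0.0126, 0.1 without library 4). Vnn1, the pantetheinase, was one of the genes that rose, at 3.13 and 1.98 CPM against 14.0 and 13.6 CPM (log2 change 2.39 ± 0.46, adjusted p = 0.00845, 0.0882 without library 4), and the uncoupling protein Ucp2 the other. Without library 3, library 4 or library 17 this list had 1 called member lower, and without library 16 it had 6. Against a background of 7.27% higher and 4.2% lower, glucose handling had 7.89% of 38 genes higher and 13.2% lower. The 3 that rose were Pfkfb3, Hk2 and Pklr, and the 5 that fell were Fbp1, Crem, Trib3, Tat and Igfbp2. Without 1 library 0 to 2 of these genes were called higher and 0 or 1 lower, the fewest without library 4. Pfkfb3, which makes the activator of glycolysis, was at 6.32 and 5.34 CPM against 14.4 and 15.9 CPM (log2 change 1.37 ± 0.21, adjusted p = 0.00336, 0.053 without library 4), and the gluconeogenic phosphatase Fbp1 at 1201 and 1082 CPM against 714 and 682 CPM (log2 change -0.71 ± 0.15, adjusted p = 0.0137, 0.13 without library 3).

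Nuclear genes of the respiratory chain were lower by small amounts. Of 48 subunits 29 fell and 0 rose, against a background of 4.2% lower, with a median of -0.59 and 1 positive change, that of Ndufa8 at 0.01, which was chosen after its values were seen. The complex I subunit Ndufb10 (chr17:24722060-24724478) was at 81.1 and 78.7 CPM against 52.1 and 51.9 CPM (log2 change -0.62 ± 0.12, adjusted p = 0.00776, 0.0796 without library 3). The complex III core protein Uqcrc1 was at 216 and 217 CPM against 147 and 127 CPM (log2 change -0.67 ± 0.13, adjusted p = 0.0106, 0.0879 without library 4). In both genes the libraries of a group were alike. Without library 3 edgeR called 0 of the 48, with 33 at an unadjusted p under 0.05, without library 4 it called 1, without library 16 it called 5 and without library 17 it called 6, while DESeq2 on all libraries called 38. Of 47 cytosolic ribosomal protein genes 0 were called by edgeR or by DESeq2, with a median of -0.20 and 3 at an unadjusted p under 0.05. Of 36 proteasome genes 2 rose (5.56%, below the background of 7.27%), the interferon-inducible immunosubunits Psmb8 and Psmb9, with a list median of -0.28.

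The remaining lists are given against the background of 7.27% higher and 4.2% lower. Of 31 tested clock genes 1 rose and 3 fell. The repressor Bhlhe40 was at 30.5 and 36.6 CPM against 142 and 80.4 CPM (log2 change 1.73 ± 0.41, adjusted p = 0.0211, 0.16 without library 3), and the nuclear receptor Nr1d2 at 94.5 and 95.7 CPM against 36.9 and 54.8 CPM (log2 change -1.05 ± 0.27, adjusted p = 0.0308, 0.183 without library 16). The core genes Arntl, Per1 and Dbp did not pass, with adjusted p of 0.841, 0.106 and 0.118. Of 41 genes of growth hormone and sex-biased liver 1 rose and 3 fell. The growth hormone receptor Ghr was at 687 and 701 CPM against 393 and 445 CPM (log2 change -0.73 ± 0.16, adjusted p = 0.0163, 0.114 without library 4). Serpina12, the serpin vaspin (chr12:104028769-104044443), was at 3.01 and 2.97 CPM against 53.5 and 74.0 CPM (log2 change 4.41 ± 0.33, adjusted p = 0.000218). Its 2 libraries per group were alike, and in OO livers it was at 36.3 and 58.6 CPM at day 0 and 39.4 and 58.6 CPM under chow, so that the CCl4 day 0 pair was the lowest. Of 38 annexin, S100 and cytoskeletal genes 12 rose (31.6%), with a median of 0.68, and 1 was left without library 3, library 4 or library 17. Of 23 tested fetal and oncofetal genes 4 rose (17.4%) and 1 fell, the trefoil peptide Tff3, at 25.4 and 29.8 CPM against 5.63 and 9.23 CPM (log2 change -1.89 ± 0.33, adjusted p = 0.00584, 0.0614 without library 4). Afp was at 4.26 and 3.07 CPM against 9.29 and 12.8 CPM (log2 change 1.58 ± 0.55, adjusted p = 0.0921) and did not pass. Endothelial genes held 2 of 33 higher (6.06%), the adhesion molecules Icam1 and Vcam1. Cholangiocyte genes held 2 of 23 tested higher (8.7%), Bicc1 and Spp1, while the summed level of defining cholangiocyte markers was 7.01 and 16.2 CPM against 5.12 and 11.7 CPM. Complement and coagulation held 3 of 34 tested lower (Proc, Klkb1 and F12). Red cell genes held 2 of 9 tested lower (Alas2 and Car1). Of the 4 red cell markers, Alas2, a haem synthesis enzyme, was at 192 and 191 CPM against 100.4 and 102 CPM. Slc4a1 was at 0.689 and 0.593 CPM against 1.76 and 1.73 CPM without passing. The globins Hba-a1 and Hbb-bs were at or near 0 in all 4 libraries. Reads that align to several places were not counted, so these globin values may not measure the blood held in the libraries. The unfolded protein list had 1 of 36 lower (Trib3), the immediate early list 2 of 29 tested higher (Ier3 and Ier5, 6.9%), the metal list 1 of 20 tested higher (5%, the zinc importer Slc39a4), and the iron list 2 of 29 tested higher (Cp and Hpx, 6.9%) and 1 lower (Ireb2). The shares of the endothelial, immediate early, metal and iron lists lie below the background. Without library 3, as without library 4, edgeR called 0 genes of the clock, complement, red cell, cholangiocyte, endothelial, metal and iron lists, with 1 to 8 per list at an unadjusted p under 0.05, and DESeq2 on all libraries called between 1 and 8 per list. The immediate early list had 0 called members without library 4, where 4 were at an unadjusted p under 0.05 and DESeq2 on all libraries called 3, and the growth hormone list had 1 lower without any 1 library. The fetal list had 0 or 1 called member lower, and 0 or 1 higher, without 1 library. Hamp, the iron hormone hepcidin, was at 300.4 and 278 CPM against 299 and 166 CPM (log2 change -0.32 ± 0.78, adjusted p = 0.834), and the metallothionein Mt1 at 19.5 and 22.2 CPM against 20.9 and 31.8 CPM (log2 change 0.34 ± 0.65, adjusted p = 0.776). Defining exocrine pancreas markers summed to 2.18 CPM or less in the 4 libraries, and 0 of 20 pancreas genes passed by edgeR, with 1 at an unadjusted p under 0.05, or by DESeq2. Of 9 fat cell genes edgeR called 0, with 2 at an unadjusted p under 0.05, and DESeq2 called 1.

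Whether these changes also occurred without CCl4 was asked by the difference between the change in CCl4 livers and that in OO livers, where the 2 OO chow libraries of day 20 and day 23 were averaged and each is the only library of its group. The OO change by itself had 56 calls (0.379%), 44 higher (0.298%) and 12 lower (0.0812%), but a count in 1 arm does not test the difference. The difference passed for 49 genes (0.332%), 23 more positive in CCl4 livers (0.156%) and 26 more negative (0.176%), with 1621 at an unadjusted p under 0.05. Of these 49 genes, 44 were also called in the CCl4 comparison, 19 higher and 25 lower, which includes the same libraries. Of the 2 OO chow libraries only library 12 shares its title entry with the CCl4 day 20 pair. OO chow library 12 carries pancreas transcripts, whose part in the difference was not tested. With the day 20 OO chow library alone 11 genes passed and with the day 23 library alone 64 passed.

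Acnat2, named as an acyl-CoA amino acid N-acyltransferase (chr4:49379840-49408151), had the smallest adjusted p. In CCl4 livers it was at 11.1 and 12.6 CPM against 56.8 and 50.1 CPM (log2 change 2.18 ± 0.24, adjusted p = 0.000819), and in OO livers at 133 and 139 CPM at day 0 and 31.7 and 17.7 CPM under chow (log2 change -2.52 ± 0.24), so the changes of the arms were of opposite sign (difference 4.70 ± 0.34, adjusted p = 0.000253). Cd207 rose in CCl4 livers by 2.99 and had a change of -0.72 in OO livers (difference 3.71 ± 0.37, adjusted p = 0.00179). Of the 32 genes of the acute-phase list 7 passed with a more positive change in CCl4 livers, against 0.156% of all tested genes. For Orm2 the difference passed (difference 5.78 ± 0.62, adjusted p = 0.00256), as it did for Lcn2 (difference 7.57 ± 1.00, adjusted p = 0.0108, 0.113 without library 4). OO livers held Lcn2 at 1174 and 277 CPM at day 0 and 448 and 139 CPM under chow. The 2 OO day 0 libraries were far apart in Lcn2, and both were above both CCl4 day 0 libraries.

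Of the 52 genes of the amino acid list 5 passed with a more negative change in CCl4 livers, against 0.176% of all tested genes. Slc7a2 in OO livers was at 487 and 433 CPM at day 0 and 714 and 1002 CPM under chow (difference -2.61 ± 0.29, adjusted p = 0.00326). Oat in OO livers was at 912 and 976 CPM at day 0 and 1059 and 1305 CPM under chow (difference -3.03 ± 0.37, adjusted p = 0.00671, 0.0604 without library 1). Got1 was at 148 and 125 CPM at day 0 and 203 and 254 CPM under chow (difference -2.25 ± 0.29, adjusted p = 0.00917, 0.0642 without library 17), and Slc38a4 at 968 and 978 CPM at day 0 and 1209 and 1619.6 CPM under chow (difference -1.73 ± 0.20, adjusted p = 0.00364). For Slc7a2, Got1 and Slc38a4 the CCl4 day 0 pair was above all OO libraries shown. Elovl5 in OO livers was at 268 and 259.8 CPM at day 0 and 616 and 845 CPM under chow, a change of opposite sign to that in CCl4 livers (difference -1.98 ± 0.19, adjusted p = 0.00179). Orm2, Serpina12, Cd207, Slc7a2, Elovl5, Slc38a4 and Acnat2 passed in all 13 alternative fits of the difference, among them those that left out 1 library.

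**Figure D5:**
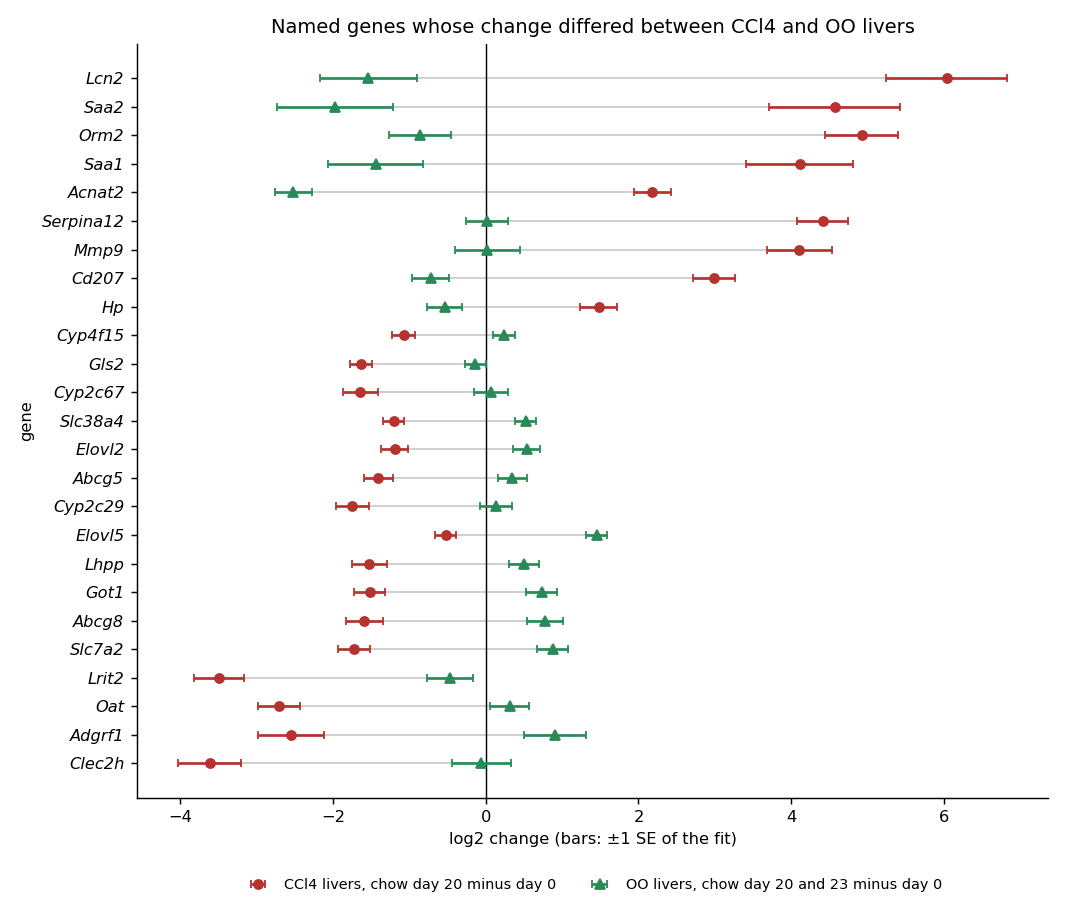
Change over time of 25 genes in CCl4 livers (red circles) and in OO livers (green triangles), as log2 with bars of 1 SE. The genes shown are named genes for which the difference between the 2 changes passed the test, so the separation of the symbols is what chose them.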

How the data were processed

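Liver messenger RNA libraries were prepared with the TruSeq kit, per the labels' protocols. Each library has 1 deposited table of unnormalised read counts by gene symbol. The authors' processing named GSNAP, mm10 and DESeq2 1.12.3, per the submitters' processing notes. Which program and annotation assigned reads to genes, and whether strand was used, is not given in the sources used here, so overlapping and antisense genes cannot be told apart. The deposited count tables also hold 5 entries for reads given to no gene, 51.0% to 55.5% of the reads of the compared libraries, which were left out. Reads that aligned to several places, 19.0% to 23.1%, were not counted, so genes with close copies (Saa, Orm, Cyp2c, Cyp3a, Cyp4a, H2) are uncertain. The labels' days 20 and 23 were followed, although the names of those tables say 28D.

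Counts of 24499 genes in 15 libraries and 8 groups were reduced by filterByExpr to 14778 genes and TMM-scaled. In R 4.3.3, edgeR 4.0.16 was used to fit a mean for each group (7 residual degrees of freedom, common dispersion 0.0414, prior degrees of freedom 4.43), and contrasts were tested by its quasi-likelihood test. A group with 1 library is assumed to vary like the others. Alternatives were RLE scaling, other filters, glmTreat at a fold of 1.5, DESeq2 1.42.0, limma 3.58.1 voom with and without lane, fewer libraries, and each library left out. The 48 gene lists and the members were chosen with earlier results of these data known. Named genes were 15 higher and 15 lower by size with a group mean of at least 5 CPM, the 5 with the smallest adjusted p of each list, 27 fixed genes and those called in the difference from OO livers. Of the 27 fixed genes 9 rose, 2 fell and 16 did not pass. Coordinates came from GENCODE M21 on mm10, where 23680 symbols matched. The test was tested on simulated data with 200 of 14453 genes changed: for this comparison it recovered 20% of 2-fold and 81% of 4-fold changes, with 4.72% of calls false, and for the difference 4%, 53% and 1.72%. Far fewer genes changed there than the 1694 called in the data, and all groups were given the same spread. These shares may therefore not carry over to the data. Some items are not reported here.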

Additional observations from a re-analysis of the deposited data

Results flagged for a closer look

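For 25 named genes the change over time in CCl4 livers differed from that in OO livers by edgeR's test of the difference (n = 2 per group, the OO chow libraries being 1 each at day 20 and day 23). Differences are given as the CCl4 change minus the OO change on the log2 scale, and their causes were not tested. Of 13 alternative fits of the difference, Orm2, Serpina12, Cd207, Slc7a2, Elovl5, Slc38a4 and Acnat2 were called in all 13, Oat in 12, Got1 in 11, Lcn2 in 10, Mmp9 and Gls2 in 8, Hp, Saa1, Cyp2c29, Lhpp, Abcg8, Elovl2 and Lrit2 in 7, Saa2, Clec2h, Adgrf1, Cyp4f15 and Abcg5 in 6, and Cyp2c67 in 5. With the day 20 OO chow library alone the adjusted p was 0.248 for Saa2 and 0.198 for Saa1. Without CCl4 library 4 it was 0.113 for Lcn2, 0.237 for Hp and 0.243 for Cyp2c67.

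More positive changes in CCl4 livers were those of the acute-phase genes Lcn2 (7.57), Orm2 (5.78), Saa2 (6.53), Saa1 (5.55) and Hp (2.02), of the serpin Serpina12 (4.40), of the protease Mmp9 (4.08), of the lectin Cd207 (3.71) and of the acyltransferase Acnat2 (4.70). For the 5 acute-phase genes both CCl4 day 0 libraries lay below both OO day 0 libraries.

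More negative changes were those of the amino acid genes Oat (-3.03), Slc7a2 (-2.61), Got1 (-2.25), Slc38a4 (-1.73) and Gls2 (-1.50), of the P450 genes Cyp2c29 (-1.88), Cyp2c67 (-1.71) and Cyp4f15 (-1.31), of the elongases Elovl5 (-1.98) and Elovl2 (-1.73), of the sterol exporters Abcg8 (-2.37) and Abcg5 (-1.75), of the pericentral gene Lhpp (-2.02), and of Clec2h (-3.56), Adgrf1 (-3.45) and Lrit2 (-3.02), which were named for the size of their change. Clec2h, a lectin-like receptor, was at 30.6 and 32.1 CPM in CCl4 livers at day 0 and 1.90 and 3.19 CPM at day 20, against 6.06 and 3.99 CPM in OO livers at day 0 and 4.50 and 5.14 CPM under chow. Adgrf1, an adhesion receptor, was at 24.0 and 24.2 CPM against 4.10 and 4.12 CPM in CCl4 livers, and at 10.6 and 8.22 CPM against 13.0 and 24.0 CPM in OO livers.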

How the results depend on the processing

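No call of a named gene reversed in any alternative. The 1694 calls (1074 higher, 620 lower) stayed within 1.5 times with RLE (1686), with every gene kept (1625), at 1 CPM in 2 libraries (1718), and with DESeq2 (1981), limma-voom (1586; 1682 with lane as a block, lane correlation -0.0818), the 7 CCl4 libraries (1868) and without libraries 6 and 12 (1705). A tested fold of 1.5 with glmTreat left 412, 359 higher and 53 lower, 87.1% of them higher against 63.4%. With the 4 compared libraries alone the calls numbered 2355, and those lower 1000. Leaving out 1 compared library, which leaves a group with 1 library assumed to vary like the others, gave 262 to 796 calls, 208 to 611 higher and 54 to 185 lower. Called members over all gene lists were 364, with 359 under RLE, 450 with DESeq2, 337 with voom, 540 with the 4 libraries, and 66 to 192 without 1 library. Of 198 called named genes 71 to 131 kept their call without 1 library, 183 with voom, 105 with glmTreat and 198 with DESeq2.

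The 49 genes of the difference (23 more positive, 26 more negative) became 100 (56 and 44) without a filter, 274 (128 and 146) with DESeq2, and 11 (4 and 7) with the day 20 OO chow library alone, against 64 with the day 23 library alone, 49 under RLE, 48 with the 1 CPM filter and 45 with voom. Without 1 library, OO day 0 included, they ranged from 10 to 36 (4 to 25 and 5 to 19). No paired analysis was possible because the groups compared share no replicate numbers.

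With 2 libraries per group, 20% of simulated 2-fold changes were recovered, so a gene without a call is not shown to be unchanged. Counts of genes near 0 at day 0 limit their folds.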
